A study of Mus musculus with 107 samples.

Results

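Gdf9 and Bmp15 encode a pair of secreted factors of the TGF-beta family that the oocyte makes and releases to the granulosa and cumulus cells around it. They were chosen as named genes, and are 2 of the 21564 genes of the deposited count table. Each protein is made as a longer precursor, is cut by furin-like proprotein convertases, and acts as a dimer with itself or with the other factor. GDF9 is known to signal through BMPR2 with the type I receptor TGFBR1 (ALK5) to SMAD2 and SMAD3, and BMP15 through BMPR2 with BMPR1B to SMAD1, SMAD5 and SMAD8. Both messenger RNAs are stored in the growing oocyte, and maternal messengers are translated and removed as the egg matures and begins development.

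The measurements were read counts in 107 single mouse eggs made with Smart-seq2, which primes complementary DNA from the poly(A) tail, so that a count follows both the number of messengers and how well their tails are primed, and these cannot be told apart. The 61 mutant eggs were mos -/-, without the kinase that holds the egg at its second meiotic arrest through the MAP kinase pathway, and the labels divided them into 22 eggs named M1, 18 named M2 and 21 named M3, names that they do not define. The 17 activated eggs were WT eggs kept for 2 h in calcium-free CZB medium with 10 mM strontium chloride, beginning 15 to 16 h after breakdown of the germinal vesicle, a treatment that starts development without sperm. The remaining 29 eggs were WT and not activated. The egg donors of every group were C57BL/6J females 2 to 3 months old given 5 IU of PMSG 48 h before collection, the oocytes were held in 2.5 µM milrinone and then matured in culture, and each egg was taken 38 to 40 h after germinal vesicle breakdown. No label ties an egg to a female or a culture, so single eggs do not count as replicates here.

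Batch 1 held 9 mutant and 5 WT eggs, with 2609358 to 9132471 counts each. Batch 2 held 52 mutant, 17 activated and 24 WT eggs, and was shallower, with medians of 605366, 796582 and 207420 counts an egg. In batch 2 the mutant eggs were on plates 1 and 2, the WT eggs on plate 3 and the activated eggs on plate 4, so group and plate cannot be told apart there. In batch 1 the authors' description puts the WT eggs on a plate with M1 replicate 6 and M3 replicate 1. It puts the other mutant eggs on another plate, so genotype and plate are largely mixed there too. Mos itself was counted at 0.868 to 5.72 CPM (counts scaled to a library of 1e6) in the batch 1 mutant sums, against 6.52 CPM in the WT sum. In batch 2 it was at 3.67 to 13.3 CPM in the mutant sums, against 31.6 CPM in the WT sum. The egg medians of batch 2 went the other way, at 1.38 CPM in M1, 6.66 CPM in M2 and 2.61 CPM in M3, against 0 in WT eggs. There 14 of 24 WT eggs had no Mos count, and the highest had 267 CPM. In batch 1 the egg labelled M1 replicate 6 had 17.9 CPM of Mos, against 2.52 to 11.2 CPM in WT eggs. Of 150 Mos counts added up for M1 there, 110 came from this egg. The Gdf9 sum and the mutant and M1 differences of Gdf9 from WT are given with and without it. So are the mutant difference of Bmp15 and the ratio of Gdf9 to Bmp15 counts. Other values that use the M1 sum of batch 1 include it, among them the Mos and oocyte marker sums. The comparisons between mutant groups are not given without this egg alone. The sources used here do not give the deleted stretch of Mos, and reads from outside it would not check the label. Of 15 oocyte markers 14 were in the table, and all 14 had counts in every sum. Granulosa and cumulus markers were low in every sum, at 110 to 315 CPM for 16 genes together, with 4 to 10 of them at 0.

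In the mouse genome (GRCm38, GENCODE M21) Gdf9 lies on the forward strand of chromosome 11, from 53431023 to 53437904, and Bmp15 on the reverse strand of chromosome X, from 6314107 to 6320721. Each gene has 2 exons. The reading frame of Gdf9 codes for 441 residues and that of Bmp15 for 392 residues. The 3' UTR is 360 bases long in Gdf9 and 1523 bases in Bmp15. The 30 bases that end with the poly(A) signal are shown because tail changes after meiotic maturation are known to depend on the distance between that signal and a cytoplasmic polyadenylation element. The capitals mark a TTTTAT element and the AATAAA signal. The Gdf9 stretch is at chr11:53437858-53437887 on the forward strand and the Bmp15 stretch at chrX:6314129-6314158 on the reverse strand.
Gdf9: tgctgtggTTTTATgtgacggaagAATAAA
Bmp15: ttatgtattttcttaatcttaaagAATAAA
In Gdf9 the TTTTAT begins 39 bases before the annotated end and the AATAAA 23 bases before it. In Bmp15 the AATAAA shown begins 28 bases before the end, and another begins 603 bases before it. The TTTTAT copies begin 1143, 697 and 530 bases before the end, outside the last 100 bases. A TTTTAT or TTTTAAT on the sense strand was present in the last 100 bases of 19.1% of the 12283 tested genes with a match in that annotation, and an AATAAA or ATTAAA in the last 40 bases of 76.0%. The match is a description of the letters only. Uqcrq, a mitochondrial respiratory subunit encoded head to head with Gdf9 on the other strand, ends at 53430831 and does not overlap it in that annotation. Its scaled level was 0.403 to 12.3 CPM in the 9 sums, against 362 to 2934 CPM for Gdf9.

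Both factors were among the more abundant messengers of the eggs. In batch 2, ranked on CPM among the 13832 genes tested, Gdf9 stood at rank 33 in M1, 64 in M2, 87 in M3, 277 in activated and 25 in WT sums. Bmp15 stood at rank 37 in M1, 28 in M2, 40 in M3, 39 in activated and 106 in WT sums. The eggs that gave no count of a factor were mutant eggs of very few counts in all. The 3 mutant eggs with 44 to 1526 counts were left out of the values per egg, except the mean log2 CPM over all eggs.

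Gdf9 fell in the mutant sums, and each of them lay below the WT sum of its batch. In batch 1 its sum was 751 CPM in M1, 396 CPM in M2 and 348 CPM in M3 eggs, against 976 CPM in WT eggs. In batch 2 its sum was 1968 CPM in M1, 1282 CPM in M2 and 1069 CPM in M3 eggs, against 2524 CPM in WT eggs. The 95% Poisson intervals were 1941 to 1995 CPM for M1 and 2482 to 2567 CPM for WT eggs in batch 2. They cover the error of counting reads only, not the spread between eggs, so they do not test these gaps. The fitted difference between mutant and WT sums was -1.19 ± 0.15 on the log2 scale (SE, edgeR quasi-likelihood test on 9 sums of group and batch, adjusted p = 0.000139). In that comparison edgeR called 9.38% of genes, 4.03% as lower, and Gdf9 had the 37th smallest p. No difference of the change between the batches was detected, with a fitted -0.02 ± 0.57 for batch 1 minus batch 2 (SE, edgeR, adjusted p = 1.0). Without WT egg 45 of batch 2 the difference was -1.03, without WT egg 2 of batch 1 it was -0.95, and without M1 egg 6 it was -1.34, each still past the threshold.

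Among the mutant groups the fitted values followed the order M1, M2, M3. Against WT, Gdf9 was lower by a fitted -1.36 ± 0.20 in M2 (SE, edgeR adjusted p = 0.000824) and by -1.58 ± 0.21 in M3 (SE, edgeR adjusted p = 0.000264), where edgeR called 1.27% and 2% of genes as lower. In M1 the value was -0.64 ± 0.20, which did not pass the threshold (SE, edgeR adjusted p = 0.0728, with 1.79% of genes called lower). It passed at -1.06 without M1 egg 6 (edgeR adjusted p = 0.0156) and at -0.69 by DESeq2 (adjusted p = 0.0104), and it was -0.39 without WT egg 2 (edgeR adjusted p = 0.297). Within the mutant eggs, on sums of each group within each plate, blocked by plate, Gdf9 differed by -0.85 ± 0.17 between M2 and M1 (SE, edgeR adjusted p = 0.552) and by -1.04 ± 0.17 between M3 and M1 (SE, edgeR adjusted p = 0.0554). It ranked 4th and 7th by p of 11609 genes there, in comparisons where edgeR called 0% and 0.0517% of genes. DESeq2 called both differences, with adjusted p of 0.0102 and 0.000127, and edgeR called M3 against M1 without the plate 1 eggs, at -0.99 (adjusted p = 0.0471). M3 and M2 differed by -0.19 ± 0.17 (SE, edgeR adjusted p = 1.0). For M2 against M1, 0 genes passed in edgeR, 718 had an unadjusted p under 0.05 and DESeq2 called 31, and for M3 against M2 these numbers were 0, 334 and 2.

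The eggs behind the sums were uneven, and in batch 2 they did not all follow them. In batch 1, Gdf9 was at 1970, 225, 553 and 273 CPM in the M1 eggs, at 189 and 597 CPM in the M2 eggs and at 433, 447 and 167 CPM in the M3 eggs, against 704, 1968, 1211, 459 and 391 CPM in the WT eggs. The groups overlapped: 4 of the 9 mutant eggs were below every WT egg, and 8 were below the WT median. The exception was M1 egg 6, which held 61.6% of the Gdf9 counts of its sum, without which that sum was 377 CPM, below the M2 sum. In batch 2 the lowest, median and highest egg had 525, 1799 and 12611 CPM in M1, 410, 1071 and 5856 CPM in M2 and 441, 985 and 1947 CPM in M3, against 298, 1101 and 9722 CPM in WT eggs. The M1 median thus lay above the WT median, and 24 of 49 mutant eggs were above it. WT egg 45 alone held 31.8% of the WT Gdf9 counts, and the WT sum was 1877 CPM without it, below the M1 sum. There were 8 WT eggs above every M3 egg and 2 above every M2 egg. The mean log2 CPM over all eggs, which gives every egg the same weight, differed by -0.54 between mutant and WT eggs, with no test. It differed by 0.07 for M1, by -0.78 for M2 and by -0.90 for M3. This mean took in the 3 mutant eggs of very few counts, where the 0.5 added to each count weighs heavily. Over eggs of at least 60000 counts the M1 value was slightly negative.

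**Figure D1:**
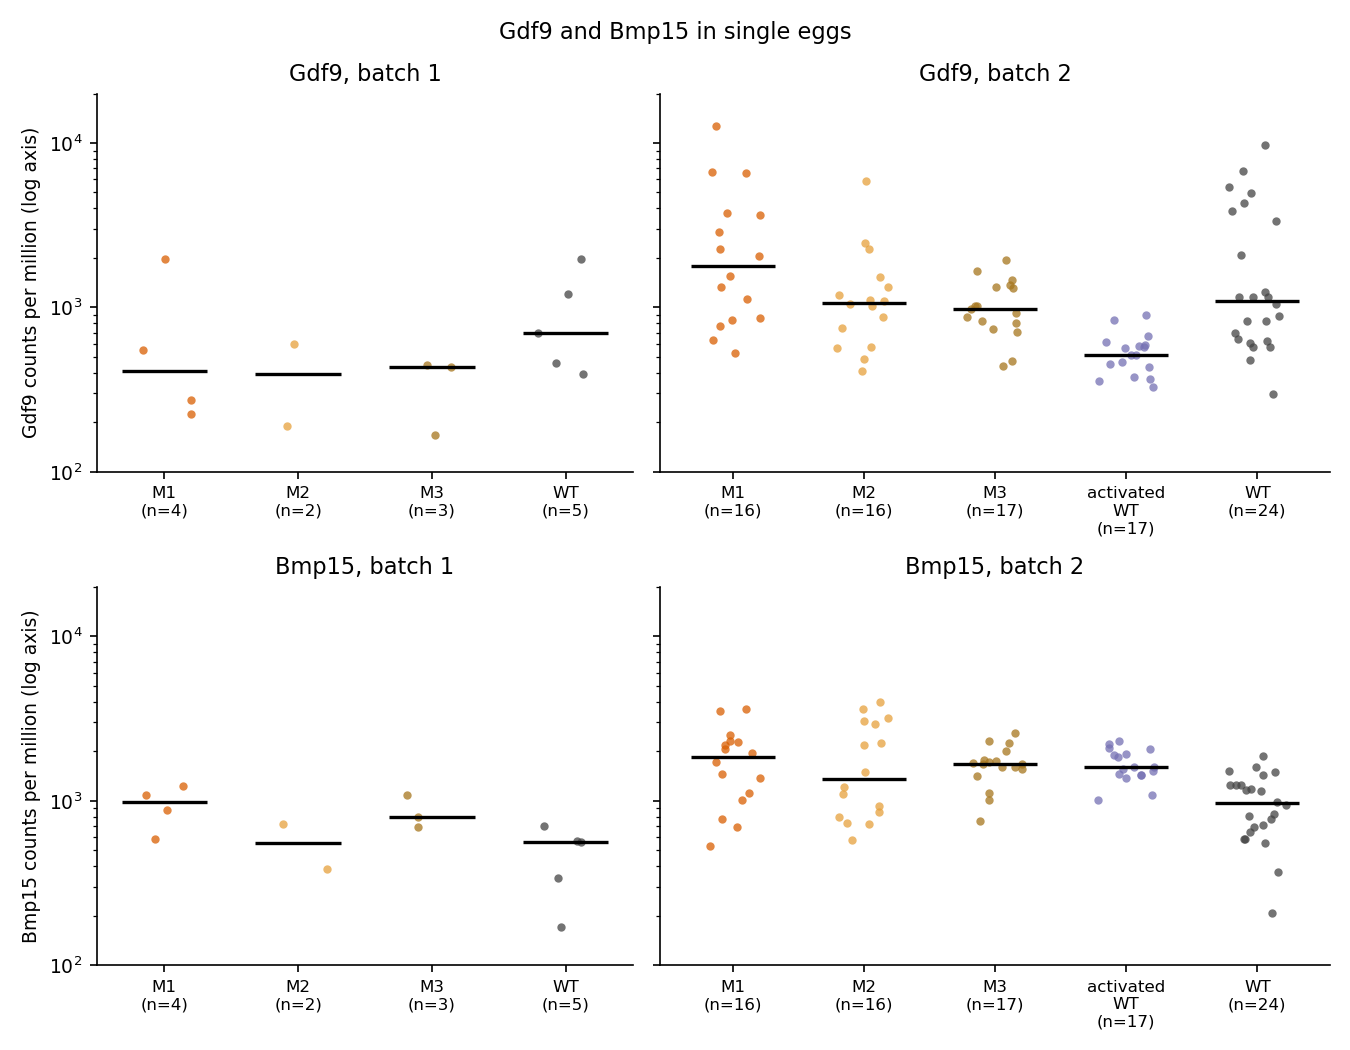
Gdf9 (top) and Bmp15 (bottom) in single eggs, in CPM on a log axis, for the groups of batch 1 (left) and batch 2 (right). Each point is an egg of at least 60000 counts and each bar a median. Gdf9 in WT eggs of batch 2 spans 298 to 9722 CPM, whereas activated eggs stay between 330 and 898 CPM.

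Activated eggs had the lowest Gdf9 of batch 2. Their sum was 554 CPM, against 2524 CPM in WT eggs, and the lowest, median and highest egg had 330, 515 and 898 CPM in activated eggs, against 298, 1101 and 9722 CPM in WT eggs. All 17 activated eggs lay below the WT median, and 13 of 24 WT eggs lay above every activated egg. The fitted difference was -2.54 ± 0.29 (SE, edgeR adjusted p = 2.8e-05), where edgeR called 13% of genes, 7.33% as lower and 5.66% as higher. The activated eggs are 1 sum on 1 plate, so its error is taken from the other sums, and treatment and plate cannot be told apart. The difference was -2.33 without WT egg 45, and -1.80 as a mean log2 CPM over eggs, with no test. Against the mutant sums, activated eggs were lower in Gdf9 by -1.34 ± 0.25 (SE, edgeR adjusted p = 0.00372), where edgeR called 4.84% of genes, 3.43% as lower. The comparisons with WT share the WT sums. The deposited egg table also gave each egg a growth number that it does not define. In mutant eggs it was the number in the group name, and in WT eggs not activated it was 1. In activated eggs the Gdf9 sum was 506 CPM in the 9 eggs with growth number 2 and 610 CPM in the 8 eggs with growth number 1.

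The sum of oocyte markers was lower together with Gdf9 in activated eggs. A sum follows its most abundant members. In activated against WT sums Zp1, Zp3 and Padi6 were called lower, and Zp2, Figla and Oosp1 were not called. In mutant sums Zp1 and Padi6 were called lower, and Zp2, at 0.74, was not called. The 14 oocyte markers summed to 5452 CPM in activated eggs, against 15411 CPM in WT eggs of batch 2. The sums were 11444 CPM in M1, 6060 CPM in M2 and 5726 CPM in M3, against 12643 CPM in WT eggs of batch 1. In batch 2 they were 15216 CPM in M1, 11905 CPM in M2 and 9531 CPM in M3. The order of the mutant groups was thus that of Gdf9. Genes of the embryo after genome activation, 7 of 8 found, summed to 441 CPM in activated eggs of batch 2. The mutant sums there were 147 CPM in M3, 11.02 CPM in M2 and 9.50 CPM in M1, against 2.76 CPM in WT eggs. In batch 1 these genes summed to 4.81 CPM in M1, 1.67 CPM in M2 and 9.002 CPM in M3 eggs. The WT sum of batch 1 was 1.298 CPM. M3 had the highest mutant sum in both batches, but it was far smaller in batch 1. The part of these shifts in the Gdf9 values was not tested.

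Bmp15 did not fall with Gdf9, and in the mutant sums it was higher. In batch 1 its sum was 937 CPM in M1, 557 CPM in M2 and 869 CPM in M3 eggs, against 447 CPM in WT eggs. In batch 2 its sum was 1830 CPM in M1, 2122 CPM in M2 and 1733 CPM in M3 eggs, against 963 CPM in WT eggs. The mutant sums were above the WT sum in both batches. Bmp15 rose by 0.66 ± 0.20 in mutant against WT sums (SE, edgeR adjusted p = 0.0440), a comparison in which 5.36% of genes were called as higher. The call was narrow. It was lost without any of the sums except M2 of batch 1 and M3 of batch 2, with values of 0.60 and 0.63 without M1 of batch 1 and of batch 2, 0.43 without M2 of batch 2, 0.57 without M3 of batch 1, 0.67 and 0.64 without WT of batch 1 and of batch 2 and 0.66 without the activated sum (edgeR adjusted p of 0.0541 to 0.250). It was also lost without WT egg 45 or M1 egg 6 (0.62 and 0.65, edgeR adjusted p = 0.0547 and 0.05003), and the direction was the same in all 24 alternatives. The batch difference of the change was -0.0042 ± 0.37 (SE, edgeR adjusted p = 1.0).

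By group, Bmp15 differed from WT by 0.73 ± 0.23 in M1, 0.54 ± 0.23 in M2 and 0.69 ± 0.23 in M3, none past the threshold (SE, edgeR adjusted p = 0.0764, 0.230 and 0.0947). With eggs thinned to 60000 counts M1 passed (0.72, edgeR adjusted p = 0.0369), without WT egg 2 it also passed (0.78, edgeR adjusted p = 0.0396), and without the M2 sum of batch 2 the M2 value was -0.015. Between the mutant groups the differences were -0.19 ± 0.21 for M2 against M1, -0.09 ± 0.21 for M3 against M1 and 0.10 ± 0.21 for M3 against M2 (SE, edgeR adjusted p = 0.911, 0.938 and 1.0), so no order of the groups in Bmp15 was larger than its error. Activated eggs had a Bmp15 sum of 1776 CPM, against 963 CPM in WT eggs. That difference was 0.54 ± 0.29 and did not pass (SE, edgeR adjusted p = 0.270), and against the mutant sums it was -0.12 ± 0.27 (SE, edgeR adjusted p = 0.886).

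Bmp15 spanned a narrower fold range than Gdf9 over the eggs of each group of batch 2. In batch 1 the M1 eggs had 1233, 588, 880 and 1083 CPM, the M2 eggs 387 and 723 CPM and the M3 eggs 797, 1085 and 698 CPM, against 564, 572, 706, 339 and 170 CPM in the WT eggs. There 6 of 9 mutant eggs were above every WT egg, and 8 were above the WT median. In batch 2 the lowest, median and highest egg had 535, 1843 and 3633 CPM in M1, 580, 1360 and 3998 CPM in M2, 751, 1674 and 2589 CPM in M3 and 1019, 1601 and 2326 CPM in activated eggs, against 207, 965 and 1885 CPM in WT eggs. The groups overlapped, with 39 of 49 mutant eggs and all 17 activated eggs above the WT median. The mean log2 CPM over all eggs differed from WT by 0.86 in mutant and by 0.84 in activated eggs, with no test. The mutant value took in the 3 mutant eggs of very few counts. Of these, M3 egg 11 stood at 6873 CPM with 4 Bmp15 counts, and M1 egg 23, with 0, was placed high by the added 0.5. WT eggs of batch 2 were also the shallowest, and within groups of batch 2 Spearman's rho between an egg's total and its Bmp15 CPM was 0.21 in M1, 0.16 in M2, 0.40 in M3, 0.86 in activated and -0.27 in WT eggs (16, 16, 17, 17 and 24 eggs, as a description).

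**Figure D2:**
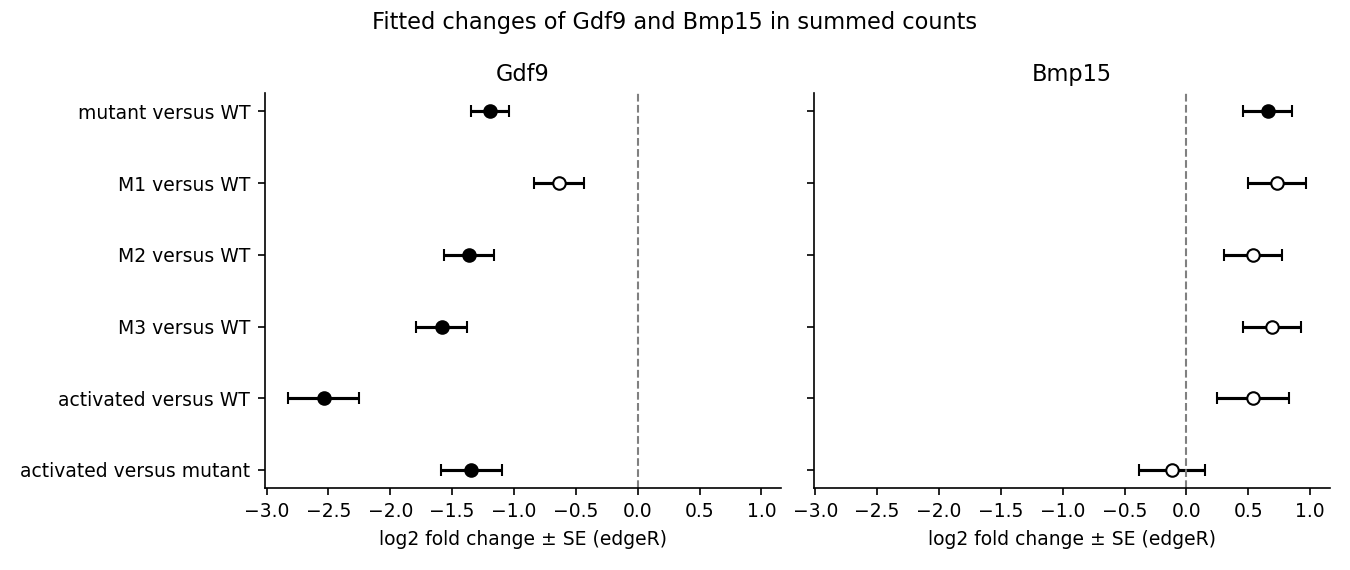
Fitted log2 fold changes of Gdf9 (left) and Bmp15 (right) in summed counts, with bars of 1 SE. Filled points passed an edgeR adjusted p of 0.05 and open points did not. Gdf9 lies below 0 in all 6 comparisons, down to -2.54 in activated against WT eggs, and Bmp15 lies above 0 in all 5 comparisons with WT.

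The factors were also read together, as the ratio of Gdf9 to Bmp15 counts within an egg or a sum, which does not depend on scaling. It compares counts, not messengers, since the Bmp15 transcript is longer (3060 bases, against 1793 bases for Gdf9). The ratio may still vary with depth. Within groups of batch 2, Spearman's rho between an egg's total and its ratio was -0.56 in M1 and -0.36 in M2. It was 0.12 in M3, -0.18 in activated and 0.30 in WT eggs, as a description. The part of depth in the ratio was not tested. In batch 1 the ratio of the sums was 0.801 in M1, 0.711 in M2 and 0.400 in M3, against 2.19 in WT eggs. Without M1 egg 6 the M1 ratio was 0.445, below that of M2. In batch 2 it was 1.08 in M1, 0.604 in M2, 0.617 in M3 and 0.312 in activated eggs, against 2.62 in WT eggs. Per base of transcript it was 0.532 in activated eggs, against 4.47 in WT eggs of batch 2. The log2 ratio was lower in mutant than in WT sums by a mean of -1.83 within batches, in 6 of 6 mutant sums, with a two-sided exact permutation p of 0.0625 over 16 relabellings, which is the smallest p this design can give and misses 0.05.

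Within single eggs of batch 1, all 5 WT eggs had more Gdf9 than Bmp15 counts, at ratios of 1.25 to 3.44, and 8 of 9 mutant eggs were below every WT egg, at 0.240 to 0.825. The remaining mutant egg, M1 egg 6, had a ratio of 1.598. The deposited egg table puts that egg and M3 egg 1, with a ratio of 0.543, on a plate with the WT eggs, and the other mutant eggs on another. In batch 2 Gdf9 exceeded Bmp15 in 10 of 16 M1, 5 of 16 M2, 3 of 17 M3 and 0 of 17 activated eggs, against 14 of 24 WT eggs. The median ratio was 1.21 in M1, 0.642 in M2, 0.555 in M3 and 0.322 in activated eggs, against 1.39 in WT eggs. The activated eggs ranged from 0.188 to 0.536, and 21 of 24 WT eggs lay above the highest of them. All 17 M3 eggs and 14 of 16 M2 eggs were below the WT median, whereas M1 eggs, 10 of 16 below it, overlapped WT eggs over most of the range. The 9 WT eggs of batch 2 with over 35% of their counts in 50 genes had a median ratio of 0.755, against 2.22 in the other 15. Without these 9 eggs the mean difference of the log2 ratio was -1.91, and without M1 egg 6 it was -1.98.

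**Figure D3:**
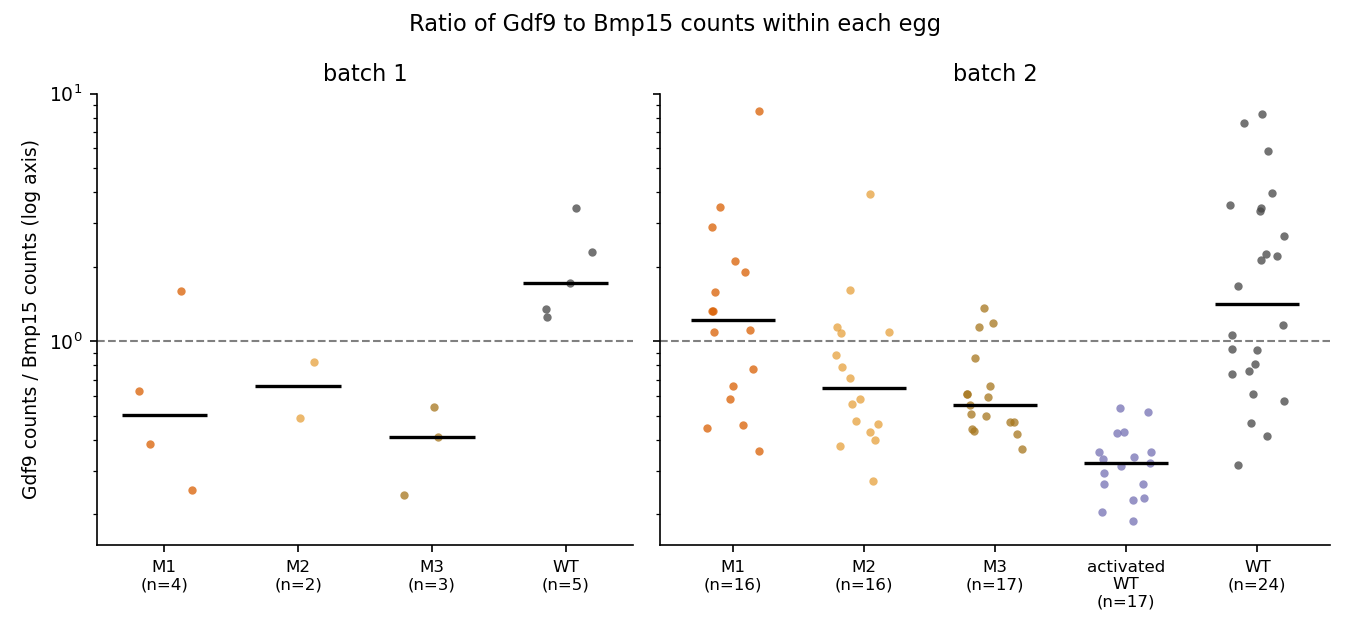
Gdf9 counts over Bmp15 counts within each egg of at least 60000 counts, on a log axis, for the groups of batch 1 (left) and batch 2 (right). Bars are medians and the dashed line is a ratio of 1. All 17 activated eggs lie below 1, and the 5 WT eggs of batch 1 lie above it.

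Lists of genes around this signalling were counted against the share of all genes called, which was 5.36% higher and 4.03% lower in mutant against WT sums and 5.66% higher and 7.33% lower in activated against WT sums. Of 16 other TGF-beta family ligands tested, edgeR called 0 in mutant and 0 in activated against WT sums, where 1 and 2 had an unadjusted p under 0.05, all higher, and DESeq2 called 0 in each. Their median log2 fold was 0.52 in mutant and 0.24 in activated eggs, against 0.06 and 0.15 over all genes tested. Tgfb2, the most abundant of them, had scaled levels of 323 to 375 CPM in mutant sums and 430 CPM in activated eggs, against 484 CPM in WT eggs of batch 2. In batch 1 it had 200.3 CPM in M1, 95.1 CPM in M2 and 241 CPM in M3, against 203 CPM in WT eggs, so that the mutant sums lay on both sides of WT.

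Of 13 receptors of the family, 0 were called in mutant sums by edgeR, 2 had an unadjusted p under 0.05 and DESeq2 called 1. Bmpr1b, the type I receptor used by BMP15, differed by -0.30 ± 0.19 (SE, edgeR adjusted p = 0.393). Tgfbr1, the type I receptor used by GDF9, differed by -0.87 and was not called (edgeR adjusted p = 0.0581). In activated against WT sums Tgfbr1 was at -1.40, also not called. Bmpr2, used by both factors, was at -0.09 in mutant and 0.03 in activated against WT sums. In activated eggs 2 of 13 fell and 0 rose, where 7.33% of all genes were called lower, and the median was -0.83, against 0.15 over all genes tested. These were the activin receptors Acvr2a, at 3.82 CPM scaled in activated eggs against 20.3 CPM in WT eggs of batch 2 (-2.55 ± 0.69, edgeR adjusted p = 0.0211), and Acvr1b, at 8.33 against 21.6 CPM (-1.51 ± 0.48, edgeR adjusted p = 0.0441). Of 17 Smads and regulators, edgeR called 0 in mutant sums, where 2 had an unadjusted p under 0.05 and DESeq2 called 1, and 1 fell in activated eggs: Ski, a corepressor of SMAD signalling, by -1.27 ± 0.33 (SE, edgeR adjusted p = 0.0165).

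The proprotein convertases included Furin, the type member of the family that cleaves such precursors. Of 12 convertases and binding proteins, 1 rose and 2 fell in mutant sums, and 1 rose and 3 fell in activated eggs. Over all genes, 9.38% were called in mutant and 13% in activated against WT sums. Furin had 150 CPM in M1, 98.4 CPM in M2, 84.6 CPM in M3 and 28.7 CPM in activated eggs, against 171 CPM in WT eggs of batch 2 (scaled). In batch 1 it had 80.5 CPM in M1, 122 CPM in M2 and 76.5 CPM in M3, against 173 CPM in WT eggs. It fell by 0.78 ± 0.22 on the log2 scale in mutant sums (SE, edgeR adjusted p = 0.0301) and by 2.67 ± 0.40 in activated eggs (SE, edgeR adjusted p = 0.000283). Mbtps1, the site-1 protease, fell by 0.77 and 1.83 on the log2 scale (edgeR adjusted p = 0.0154 and 0.00132). Ltbp2, a latent TGF-beta binding protein of the matrix, rose by 2.07 in mutant and 3.22 in activated eggs (edgeR adjusted p = 0.00951 and 0.00239). It had 7 counts in the WT sum of batch 2, and its scaled level in batch 1 was 9.81 to 15.2 CPM in mutant and 4.38 CPM in WT sums.

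Of 10 transcription regulators of the oocyte, 1 rose and 2 fell in mutant sums, and 2 fell in activated eggs, beside 9.38% and 13% of all genes called. Foxo3, which restrains the growth of primordial follicles, had 1014 CPM in M1, 1316 CPM in M2, 1115 CPM in M3 and 967 CPM in activated eggs, against 2247 CPM in WT eggs of batch 2 (scaled). In batch 1 it had 2146 CPM in M1, 2347 CPM in M2 and 2113 CPM in M3, against 2946 CPM in WT eggs. It fell by 0.71 in mutant and by 1.02 in activated eggs (log2, edgeR adjusted p = 0.0125 and 0.0209). Lhx8, a homeobox regulator of early oocytes, fell by 0.70 and by 1.51 (log2, edgeR adjusted p = 0.0352 and 0.00680). Ybx2, a binding protein that stabilises maternal messengers, rose by 1.18 in mutant sums (log2, edgeR adjusted p = 0.0488). Figla and Nobox, regulators of oocyte genes of which NOBOX is known to act on Gdf9 and Bmp15, were not called in activated eggs, at -0.36 and -0.22.

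Of 15 other oocyte signals and receptors, 0 rose and 2 fell in mutant sums, and 0 rose and 7 fell in activated eggs, where 4.03% and 7.33% of all genes were called lower. The median was -0.24 in mutant and -0.76 in activated eggs, against 0.06 and 0.15 over all genes tested. Pde3a, the phosphodiesterase that milrinone inhibits, fell by 0.80 and 1.80 (log2, edgeR adjusted p = 0.0106 and 0.00126). Zp3, a protein of the egg coat, had 45.5 CPM in activated eggs, against 411 CPM in WT eggs of batch 2 (-2.99 ± 0.40, edgeR adjusted p = 0.000138), and Zp1 differed by -2.05 in activated and -0.70 in mutant eggs (edgeR adjusted p = 0.00105 and 0.0360), although its M1 sum of batch 2, at 561 CPM, was above WT, at 420 CPM.

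The list of cumulus genes known to respond to these factors was read in the egg itself, since the cumulus cells were not the sampled cells. Of 12 genes 8 were tested, and 1 rose in mutant and 2 rose in activated eggs, where 5.36% and 5.66% of all genes were called higher. Egfr, the receptor for EGF-like factors, had scaled levels of 47.5 to 51.3 CPM in the mutant sums and 65.7 CPM in activated eggs, against 3.42 CPM in WT eggs of batch 2. In batch 1 the gap was smaller, at 25.2 CPM in M1, 11.5 CPM in M2 and 19.1 CPM in M3, against 5.96 CPM in WT eggs. The fitted difference from WT sums was 2.38 ± 0.47 in mutant and 2.98 ± 0.63 in activated eggs (SE, edgeR adjusted p = 0.00716 and 0.00718). Ldha, the muscle-type lactate dehydrogenase, had 494 counts in activated eggs, against 0 in WT eggs of batch 2 and 13 in WT eggs of batch 1, and was called in activated eggs (edgeR adjusted p = 0.000503). In batch 1 Ldha had 14 counts in M1, 9 in M2 and 259 in M3, and in batch 2 it had 5, 17 and 30. Its difference between mutant and WT sums was 2.55 and was not called (edgeR adjusted p = 0.0853). The granulosa and cumulus markers as a whole were lowest in activated eggs, at 110 CPM.

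**Figure D4:**
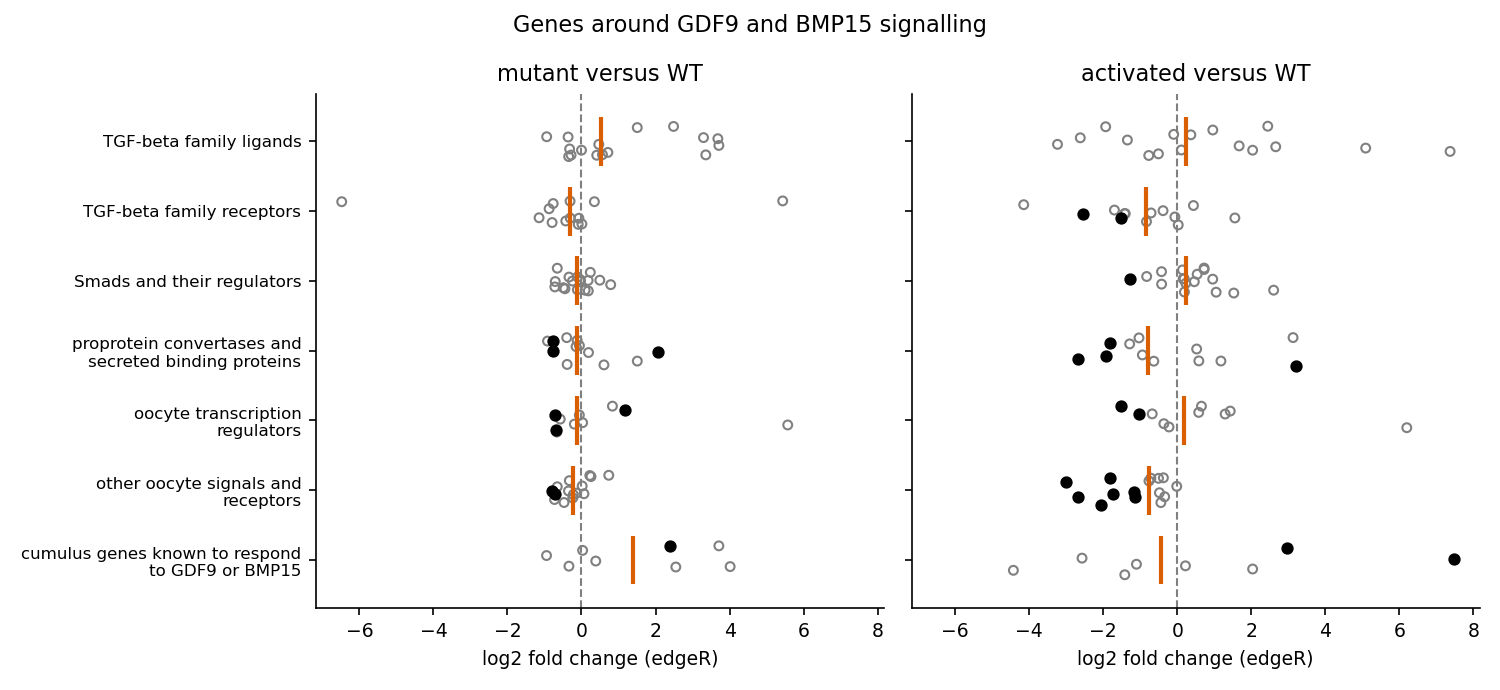
Fitted log2 fold changes of the tested genes of the 7 lists, in mutant against WT sums (left) and activated against WT sums (right). Each circle is a gene, filled where edgeR's adjusted p was under 0.05, and each bar is the list's median. The list of other oocyte signals and receptors has 7 filled circles below 0 in activated eggs.

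Gdf9 and Bmp15 did not follow each other over the 9 sums, with a Pearson r of 0.33 between their log2 scaled levels, as a description. The sums share batch and depth within a batch. Among 6019 genes of at least 4 mean log2 CPM, the genes most like Gdf9 were Rsrp1 (r = 0.98), Grn (0.97), Tmem107 (0.97), Oas1h (0.96) and Padi6 (0.96), an oocyte protein of the cytoplasmic lattices that was on the marker list. Those most like Bmp15 were Pramel47 (0.98), Dock3 (0.98), Pramel26 (0.98), Psg20 (0.97) and Rnf24 (0.97). Pramel and Psg genes have near-identical copies, and their counts are uncertain. Alikeness was read from the same sums as the comparisons above, so no test of these genes is given.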

How the data were processed

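The files deposited by the authors hold raw read counts by gene, beside a table that describes the eggs. STAR and HTSeq, with GRCm38 (mm10) as the build, are named in the submitters' processing notes, without versions or a strand setting. The genes and lists were chosen with earlier results of these data known. The named genes were up to 3 called members of each list, those of lowest p, or the most abundant member where no member was called, and the 5 genes most correlated with each factor. Tgfbr1 and Bmpr2 were named besides, as receptors of the factors.

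Eggs are not replicates, so their counts were added up within each group and batch, which gave 9 sums. A model of group and batch was fitted in edgeR 4.0.16 (R 4.3.3), with TMM scaling and robust quasi-likelihood tests on the 13832 genes that passed filterByExpr (minimum count 10), Benjamini-Hochberg adjustment over all of them and 3 residual degrees of freedom. P-values measure only the spread between sums, which may be technical. For the mutant groups, 9 sums by plate were fitted with a plate term (11609 genes). Scaled levels are TMM-scaled CPM and others CPM of all counts. Values per egg use eggs of at least 60000 counts, which left out 3. The mean log2 CPM over eggs took in all eggs unless stated, and added 0.5 to each count. Lists were counted, with no set test. The fits were tested on simulated data, and DESeq2 1.42.0 was an alternative.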

Additional observations from a re-analysis of the deposited data

Results flagged for a closer look

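Eggs were compared within sets of 4 to 10 from 1 group and plate or growth number, by the gap between the most extreme egg and its nearest neighbour over the whole range. Of 24 sets and measures 3 stood out. The rule gives about 1 in 20 by chance only for values of normal spread. CPM and ratios were compared without logs and were skewed, so the share that chance gives here is not known. M2 egg 10 of plate 1 had 5856 CPM of Gdf9, against 563 to 2466 CPM in the other eggs of its set. M2 egg 15 of plate 2 had 2282 CPM of Gdf9, against 410 to 1190 CPM in the others. The same egg had a ratio of Gdf9 to Bmp15 counts of 3.94, against 0.272 to 1.14 in the others.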

How the results depend on the processing

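No paired analysis was possible because the tests ran on sums over eggs, which carry no replicate number. Dropping the batch term ended the Gdf9 calls (mutant -1.18, M2 -1.33, M3 -1.58, activated -1.98, activated against mutant -0.80) and that of Bmp15 (0.66), turned Bmp15 in activated against mutant to 0.36, and left 51 genes called in mutant and 196 in activated sums, against 1298 and 1797. Sums per plate left 409 and 666 genes called, and Bmp15 in mutant at 0.67, not called. Bmp15 in mutant also missed the threshold with RLE scaling (0.60), thinned eggs (0.53), without WT egg 45 (0.62) and without M1 egg 6 (0.65), and ranged from 0.43 to 0.73 when 1 sum was left out. Bmp15 was called without the filter in M1 (0.74) and M3 (0.69), and in M1 also with thinned eggs (0.72) and without WT egg 2 (0.78). Gdf9 was called in M1 by DESeq2 (-0.69) and without egg 6 (-1.06), in M2 against M1 without the filter (-0.84) and by DESeq2 (-0.86), and in M3 against M1 with upper quartile scaling (-0.99), without the filter (-1.07), by DESeq2 (-1.05) and without the eggs of plate 1 (-0.99). Without those of batch 1 or of plate 2 it was not called, and the value over plates left out was -1.09 to -0.99. The mean log2 CPM over eggs moved Gdf9 to -0.54 in mutant, 0.065 in M1, -0.78 in M2, -0.90 in M3 and -1.80 in activated eggs, and Bmp15 to 0.86, 1.03 in M1, 0.99 in M3 and 0.84 in activated eggs. Over eggs of at least 60000 counts Gdf9 was at -0.58, -0.063, -0.78, -0.90 and -1.77, Bmp15 at 0.97 in M1 and 0.87 in activated eggs, and Bmp15 in activated against mutant at 0.054, which upper quartile scaling also turned, to 0.039. Leaving out 1 sum gave 755 to 1262 genes called in mutant and 1433 to 2106 in activated sums, Bmp15 at -0.015 to 0.87 in M2 and -0.25 to 0.16 in activated against mutant, and, over plates, -0.42 to 0.015 in M2 against M1 and -0.19 to 0.34 in M3 against M2, a value that was also -0.056 with no plate term. The batch difference, near 0, turned sign for Bmp15 with RLE scaling (0.0024), upper quartile scaling (0.023) and thinned eggs (0.23), and for Gdf9 with upper quartile scaling (0.0092). Upper quartile scaling put the median of all genes in activated against WT sums at 0.30, against 0.15, and higher and lower calls at 993 and 841, against 783 and 1014. The log2 ratio of Gdf9 to Bmp15 was negative in all 12 alternatives (-1.98 to -1.30). The cause of these changes was not tested. The alternatives that leave out an egg or the concentrated WT eggs, or average over deep eggs, were chosen after seeing the data. Depth limits WT eggs of batch 2 most, at a median of 207420 counts.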
